A study of Arabidopsis thaliana with 18 samples.

Results

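Among 32678 genes counted in leaves of ED-P4E1, a transgenic line of Arabidopsis thaliana, 29 were lower with estradiol than with mock at both 12 h and 24 h after spraying. They were chosen on counts per 1e6 gene counts of the library (CPM). At both times log2 of the estradiol mean over the mock mean, each with 0.5 CPM added, had to be -0.4 or less, and the highest of the 3 estradiol libraries had to lie below the lowest of the 3 mock libraries. At 12 h 328 genes (1%) met this condition and at 24 h 202 genes (0.618%). The 29 genes that met it at both times were 8.84% of the former and 14.4% of the latter, and the mirrored rule for genes raised at both times held for 531 genes. Since the values at 12 h and 24 h chose the genes, the estradiol differences at those times are a description, with no test. The values at 6 h took no part in the choice.

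All plants were Col-0 carrying the mutations eds1-2 and pad4-1 together with 2 transgenes, PAD4 behind a promoter switched on by estradiol and EDS1 behind the constitutive 35S promoter, so EDS1 was overproduced in the mock leaves too. Leaves of plants aged 4 weeks, kept at 22 °C with 10 h of light a day, received either 10 µM estradiol or a mock spray with 0.2% DMSO, both with 0.01% of the wetting agent silwet, and were sampled 6, 12 and 24 h later. Each of the 6 groups held 3 libraries of polyadenylated RNA, 18 in all. The labels do not tell whether the 3 replicates of a group stem from different plants, so a p-value here covers the spread among libraries only, some or all of which may be technical. No estradiol-treated plants without the transgenes were analysed here, so PAD4 induction and the inducer itself cannot be told apart.

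PAD4 and EDS1, both lipase-like, form a complex that relays immune signals in leaves. Immune activation in Arabidopsis is known to go with lower transcript levels of many genes for growth, the cell wall and primary metabolism. Cell walls of growing leaf cells hold glycoproteins, secreted peptides and acetylated polysaccharides, and the leaf's supply of nitrogen and sulfur passes through reductases and amino acid enzymes.

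Gene counts ranged from 19.1 to 48.1 M per library (M, 1e6 reads; median 28.9 M), so that 3 counts in 1 library corresponded to 0.0624 to 0.157 CPM. PAD4 was at 26.8 to 30.7 CPM in mock and 121 to 245 CPM in estradiol libraries at 6 h, 20.04 to 20.35 against 353 to 449 CPM at 12 h, and 12.8 to 17.8 against 131 to 317 CPM at 24 h. EDS1 ranged from 1984 to 4229 CPM over all libraries. Counts per locus do not separate a transgene from the chromosomal gene. Summed mesophyll markers were abundant in every library, and 4 of 5 seed markers were at 0 throughout. The flower genes AP1, AP3 and PI were at 0 to 0.116 CPM, and SEP3 and SHP1 at 0 to 0.272 CPM. Other entries of the same list were higher, with AG at 0.648 to 2.70 CPM, SEP1 at 290 to 326 CPM and SEP2 at 45.6 to 228 CPM. Entries were matched by symbol, and whether the loci matched as SEP1 and SEP2 are the flower genes meant was not checked.

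Of the 29 genes, 17 have a symbol and 12 are named by locus. By annotation 28 encode proteins and AT1G26208 is a long non-coding RNA. They lie on chromosomes 1 (11 genes), 2 (9 genes), 3, 4 and 5 (3 genes each). Mostly by their annotated products 8 were placed with secreted and cell wall proteins, 7 with transport and metabolism, 10 with regulators and 4 with unknown or non-coding products, a grouping made after the genes were known. The annotated product of DTA2, placed with secreted and cell wall proteins, names neither secretion nor the wall.

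The 250 bases before the annotated start are shown for the gene with the largest difference at 12 h (AGP17), the one with the largest at 24 h (AT1G62510), the drought gene RD20 and the nitrate reductase gene NIA1. They were read from RefSeq's TAIR10.1 by locus, 5′ to 3′ on the gene's strand, whereas the submitters name TAIR10 as their build. They cover chr2:9843884-9844133 on the plus strand for AGP17, and on the minus strand chr1:23137255-23137504 for AT1G62510, chr2:14146556-14146805 for RD20 and chr1:29239485-29239734 for NIA1. Capitals mark every match on either strand to the 15 short motifs searched.
AGP17: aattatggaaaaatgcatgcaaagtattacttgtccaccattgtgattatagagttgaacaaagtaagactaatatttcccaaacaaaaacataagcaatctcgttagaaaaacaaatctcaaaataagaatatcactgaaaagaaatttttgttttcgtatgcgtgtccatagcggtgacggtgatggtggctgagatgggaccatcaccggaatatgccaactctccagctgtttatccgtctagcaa
AT1G62510: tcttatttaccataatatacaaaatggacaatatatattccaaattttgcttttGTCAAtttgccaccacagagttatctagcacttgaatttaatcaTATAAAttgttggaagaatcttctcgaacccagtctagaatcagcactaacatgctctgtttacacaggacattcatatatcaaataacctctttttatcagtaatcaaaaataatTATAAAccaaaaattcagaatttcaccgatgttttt
RD20: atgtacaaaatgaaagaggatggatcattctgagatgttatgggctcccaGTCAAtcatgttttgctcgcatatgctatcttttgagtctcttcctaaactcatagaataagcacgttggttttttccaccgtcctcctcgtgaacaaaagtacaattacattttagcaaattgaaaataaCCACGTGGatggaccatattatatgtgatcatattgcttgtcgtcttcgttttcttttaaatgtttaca
NIA1: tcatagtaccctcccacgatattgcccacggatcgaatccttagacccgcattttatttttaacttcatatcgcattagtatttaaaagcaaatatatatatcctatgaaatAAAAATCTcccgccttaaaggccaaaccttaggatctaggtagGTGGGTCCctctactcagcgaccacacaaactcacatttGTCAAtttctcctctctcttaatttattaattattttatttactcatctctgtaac

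The RD20 window held CACGTG, the G-box, starting 68 bases before the gene start, with ACGTGG overlapping it on both strands. The AGP17 window held none of the motifs. Among the 29 windows TTGAC, the core of the W-box bound by WRKY factors, occurred in 11 (37.9%, against 44.6% of 31911 promoters) and TATAAA, the TATA box, in 14 (48.3% against 45.9%). CACGTG occurred in 1 (3.45% against 5.91%), ACGTGG in 2 (6.90% against 7.61%) and the MYB-type AACCTA in 2 (6.90% against 12.8%). The sequence CACATG was in 4 (13.8% against 10.8%), the I-box GATAAG in 1 (3.45% against 12.6%), the auxin-type TGTCTC in 3 (10.3% against 10.8%) and AAAAATCT, a CCA1-binding sequence, in 3 (10.3% against 6.33%). GGNCCCAC was in 1 window (3.45% against 0.984%), that of NIA1, and CGTGTG in 1 (3.45% against 5.10%), that of MYB48. In 0 of the 29 windows was the site II element TGGGCC, found in 12.4% of all promoters, or the brassinosteroid-type CGTGCG, found in 1.48%. The evening element of the clock, AAAATATCT, was in 0 windows against 2.22%, and the E2F site TTTCCCGC in 0 against 0.602%. All were searched on both strands. The shares are a description of these windows only.

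The differences were modest in size. At 12 h the log2 differences ran from -1.49 to -0.40 with a median of -0.57, a median fold of 1.48, and at 24 h from -1.04 to -0.40 with a median of -0.52, a median fold of 1.43. A log2 difference of -1 or less was reached by 1 gene at each time, AGP17 at 12 h and AT1G62510 at 24 h. The difference was larger at 12 h in 14 genes and at 24 h in 15. Both differences lay between -0.4 and -0.5 in 7 genes, close to the limit. The gap between the groups was often narrow, since the lowest mock library exceeded the highest estradiol library by a median of 1.201 times at 12 h (range 1.02 to 2.28) and 1.19 times at 24 h (range 1.00 to 1.72). In bulk leaf RNA fewer cells of a type and less RNA per cell cannot be told apart.

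**Figure D1:**
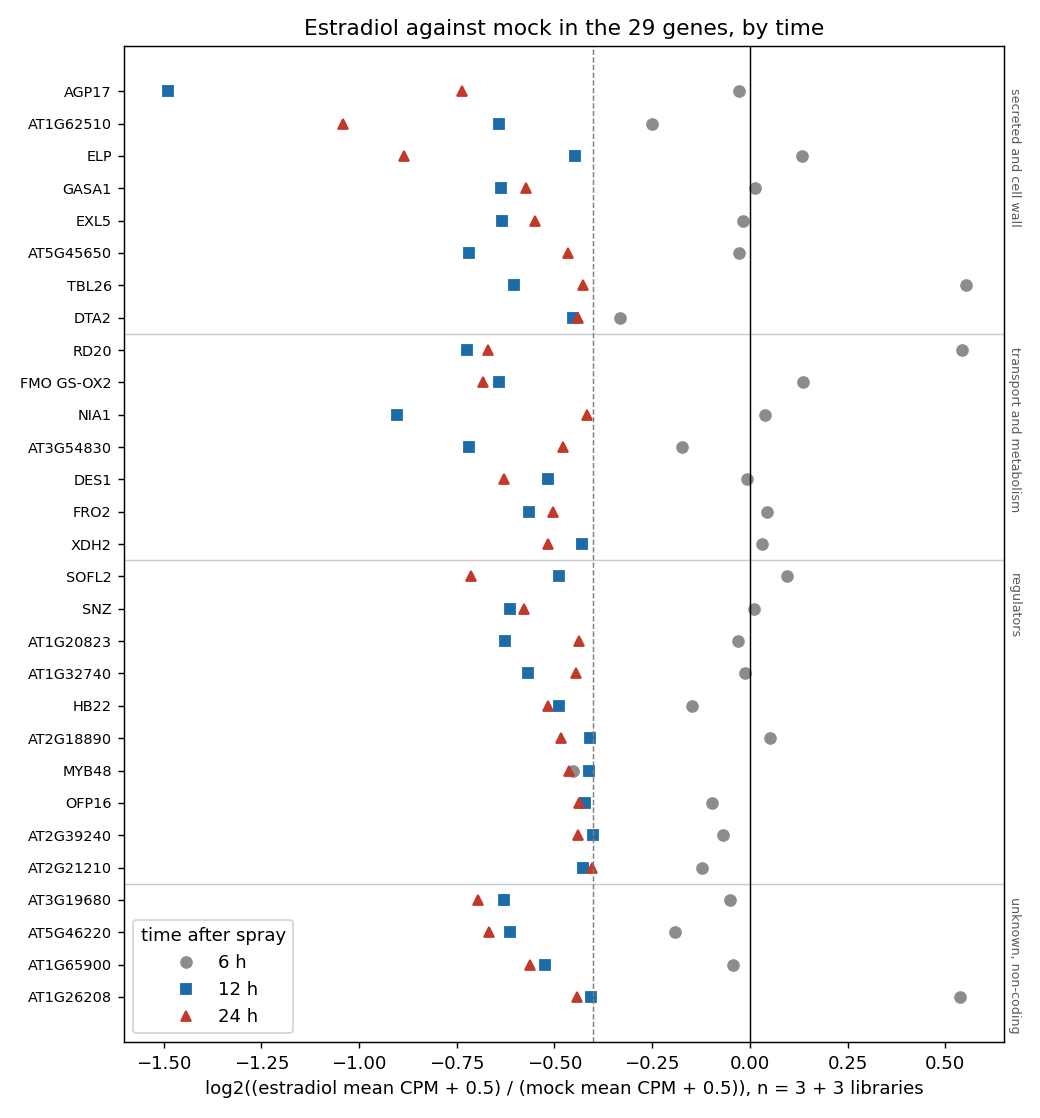
Difference between estradiol and mock for the 29 genes, as log2 of mean CPM plus 0.5 (n = 3 libraries a group), grouped by role and sorted by the mean of 12 h and 24 h; the dashed line is the limit of -0.4. The squares (12 h) and triangles (24 h) lie at or left of the line by choice of the genes, whereas the grey points (6 h) run from -0.45 to 0.55 about a median of -0.02.

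Among the secreted and cell wall genes, AGP17, which encodes a lysine-rich arabinogalactan protein of the cell surface, had the largest difference at 12 h. Its mock libraries at 12 h held 12.7, 15.9 and 14.5 CPM and its estradiol libraries 4.69, 4.14 and 5.58 CPM. At 24 h it was at 32.6, 26.2 and 19.5 CPM in mock and 13.4, 17.3 and 15.8 CPM in estradiol leaves. The groups were wide apart at 12 h, a log2 difference of -1.49, whereas at 24 h mock replicate 3 lay close to the estradiol libraries and the difference was -0.74. AT1G62510, a lipid-transfer and 2S albumin superfamily protein, showed the reverse order. It was at 1.08, 1.44 and 0.678 CPM in mock and 0.460, 0.428 and 0.620 CPM in estradiol libraries at 12 h, and at 16.2, 18.3 and 18.5 against 8.32, 7.24 and 9.44 CPM at 24 h. The wider and cleaner gap was that at 24 h, a difference of -1.04, while at 12 h the counts per library were 12 to 38 reads and the difference of -0.64 rests on few reads. The added 0.5 CPM shrinks such a low gene's difference, since its estradiol mean at 12 h was 47.2% of the mock mean.

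ELP, annotated as an extensin-like protein of the same superfamily, was at 273, 279 and 248 CPM in mock and 187, 194 and 206 CPM in estradiol libraries at 12 h. At 24 h it was at 418, 389 and 321 CPM in mock against 166, 237 and 206 CPM. The log2 difference grew between the times, from -0.45 to -0.89, without overlap at either. GASA1, a gibberellin-regulated secreted cysteine-rich peptide, was at 103, 140 and 133 CPM in mock against 69.4, 92.1 and 80.4 CPM at 12 h and at 35.5, 31.3 and 36.2 against 25.2, 20.5 and 23.1 CPM at 24 h. Its differences were similar, -0.64 and -0.57. EXL5, of the EXORDIUM family of extracellular proteins tied to growth, differed by -0.63 and -0.55, from a mock mean of 31.2 ± 4.16 CPM to 19.96 ± 1.13 at 12 h (SD, n = 3).

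The other 3 genes of this group had smaller differences at 24 h than at 12 h. AT5G45650, a subtilisin-type protease, had mock libraries of 17.1, 19.7 and 21.9 CPM against 11.4, 12.2 and 11.5 CPM at 12 h and 47.5, 45.5 and 47.9 against 34.2, 33.2 and 34.4 CPM at 24 h. The libraries of each group were close together, and the log2 differences were -0.72 and -0.46. TBL26 belongs to the trichome birefringence-like family, which includes O-acetyltransferases of wall polysaccharides. It differed by -0.60 at 12 h and -0.43 at 24 h, and at 24 h its mock libraries were at 319, 504 and 316 CPM against 291, 290 and 266 CPM, so that replicate 2 of mock carried most of the gap. DTA2, named as a downstream target of the MADS factor AGL15, stayed under 2 CPM in every library and differed by -0.45 and -0.44.

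**Figure D2:**
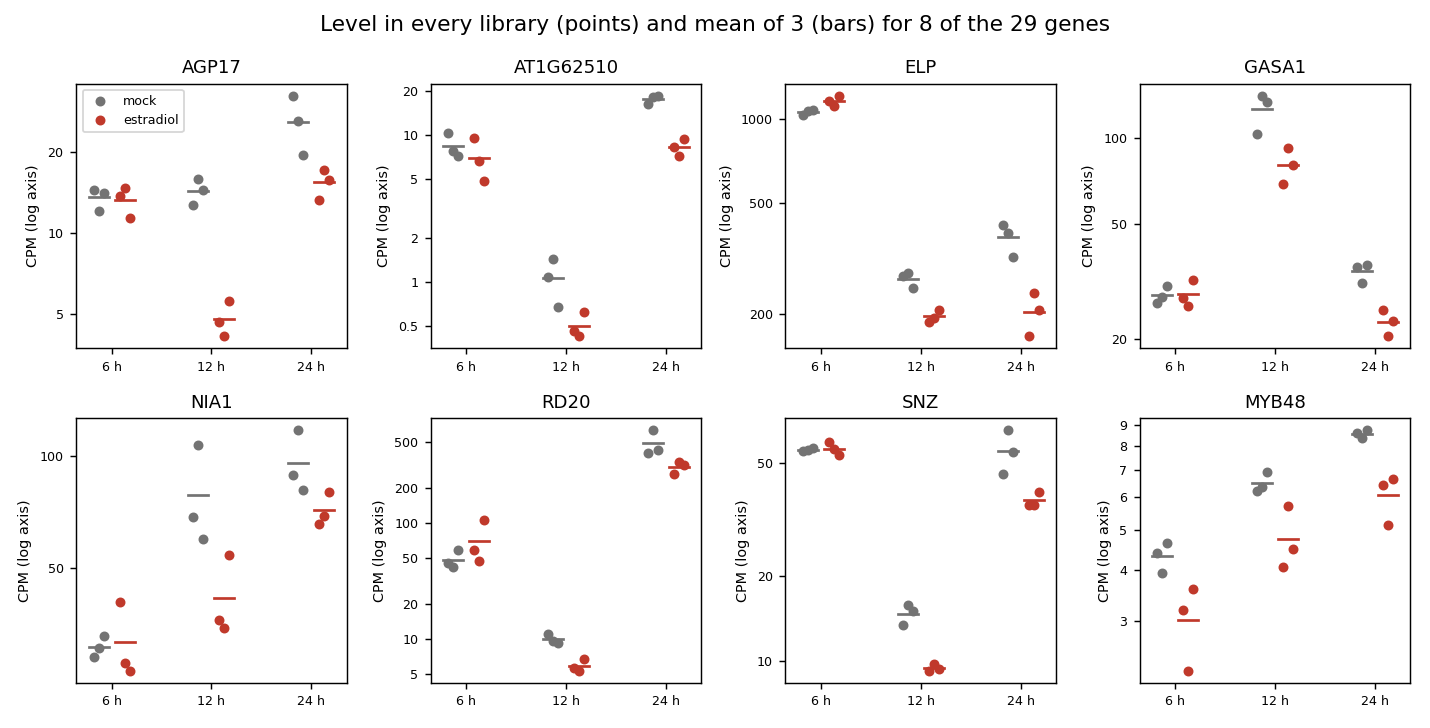
CPM of 8 of the 29 genes in each library (points; log axis, a separate one for each gene) by time after spraying, with a bar at the mean of 3 libraries, grey for mock and red for estradiol. At 12 h and 24 h no red point reaches a grey one, by choice of the genes, whereas at 6 h the colours overlap except in ELP (estradiol above) and MYB48 (estradiol below).

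In transport and metabolism, NIA1, a nitrate reductase that makes nitrite from nitrate, differed most at 12 h. It was at 68.5, 107 and 60.0 CPM in mock and 36.4, 34.6 and 54.3 CPM in estradiol libraries, a log2 difference of -0.90. At 24 h it was at 89.1, 117 and 81.2 against 65.7, 69.0 and 80.3 CPM, a difference of -0.42. The groups nearly touched at 24 h, where the lowest mock library exceeded the highest estradiol library by 1.01 times. RD20, a calcium-binding caleosin of lipid droplets known for its induction by drought and abscisic acid, was at 11.1, 9.57 and 9.22 CPM in mock against 5.55, 5.28 and 6.67 CPM at 12 h. At 24 h it was at 399, 624 and 421 against 264, 333 and 311 CPM. The log2 differences, -0.72 and -0.67, were alike although its level was far higher at 24 h in both treatments.

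FMO GS-OX2, which oxygenates the sulfur of methylthioalkyl glucosinolates, differed by -0.64 and -0.68, from 18.4 ± 4.17 CPM in mock to 11.3 ± 2.47 in estradiol leaves at 24 h (SD, n = 3). DES1, a cytosolic enzyme that releases sulfide from cysteine, was at 27.7, 41.7 and 41.6 CPM in mock against 24.4, 20.6 and 26.2 CPM at 24 h. Its differences were -0.52 and -0.63, and mock replicate 1 was the library nearest to the estradiol values at 24 h. AT3G54830, of a family of amino acid transporters, differed by -0.72 and -0.48, and at 24 h its mock libraries of 42.0, 40.7 and 43.4 CPM stood clear of the estradiol libraries of 31.2, 29.6 and 29.2 CPM. FRO2, a ferric chelate reductase known for iron uptake in roots, was at 0.321 to 1.097 CPM at 12 h, 9 to 29 reads a library, and differed by -0.56, whereas at 24 h it was at 5.21 to 7.87 CPM in mock and 4.46 to 4.68 CPM in estradiol leaves, a difference of -0.50. XDH2, a xanthine dehydrogenase of purine breakdown, differed by -0.43 and -0.52. Its paralog XDH1, the next gene on the chromosome, differed by 0.03 and 0.05.

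Among the regulators, SNZ, an AP2-type factor known as a repressor of flowering, was at 13.4, 15.7 and 15 CPM in mock against 9.24, 9.77 and 9.35 CPM at 12 h. At 24 h it was at 45.9, 65.4 and 55.0 against 35.7, 35.7 and 39.6 CPM. The estradiol libraries were tightly grouped at both times and the differences were -0.61 and -0.58. SOFL2, whose family is tied to cytokinin levels, differed by -0.49 at 12 h, where all its libraries were at 1.35 to 3.101 CPM, and by -0.71 at 24 h, from 5.72, 8.43 and 7.26 CPM in mock to 4.40, 3.41 and 4.67 CPM. It therefore had the largest difference of the regulators at 24 h.

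The other 8 regulators had smaller differences at 24 h than SNZ and SOFL2. AT1G20823, a RING/U-box protein of a class that includes ubiquitin ligases, differed by -0.63 and -0.44. AT1G32740, of the S-ribonuclease binding protein family, differed by -0.57 and -0.44. HB22, a homeodomain factor, differed by -0.49 and -0.52, and AT2G18890, a protein kinase, by -0.41 and -0.48. The R2R3-MYB factor MYB48 differed by -0.41 and -0.46, and OFP16, of the ovate family of repressors, by -0.42 and -0.44. AT2G21210, a SAUR-like auxin-responsive protein, differed by -0.43 and -0.40, and AT2G39240, related to the RNA polymerase I factor RRN3, by -0.40 and -0.44. These 8 genes were at 1.68 to 42.3 CPM over the 12 h and 24 h libraries.

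AT2G39240 and SNZ are adjacent on the minus strand of chromosome 2 with 0 genes between them, and AT1G62510 and FMO GS-OX2 lie on chromosome 1 with 2 genes between them, of which AT1G62520 differed by -0.39 at 12 h and -0.57 at 24 h. The 4 genes of unknown or non-coding product were AT3G19680, a DUF1005 protein (-0.63 and -0.70), AT5G46220, a DUF616 transmembrane protein (-0.61 and -0.67), AT1G65900 (-0.52 and -0.56) and the non-coding AT1G26208 (-0.41 and -0.44). AT1G26208 overlaps SOFL1, the relative of SOFL2, by 1169 bases on the opposite strand, and SOFL1 differed by -0.37 and -0.38. It also overlaps AT1G26218 by 411 bases on the same strand, which differed by -0.27 and -0.47, and AT1G26220 by 329 bases on the opposite strand. Whether reads were counted by strand is not given in the sources used here, and reads of these genes cannot be told apart. SOFL2, AT2G21210, AT3G19680 and AT1G32740 also overlap other genes, by 54 to 451 bases.

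The smallest difference of any of the genes was that of AT2G39240 at 12 h, and AT2G21210, AT1G26208 and AT2G18890 were the next nearest to the limit by the smaller of their differences. Among the genes with a symbol the nearest inside were MYB48, NIA1, OFP16 and TBL26. Among genes with a symbol just outside, with groups that did not overlap at either time, were MYB29, a regulator of aliphatic glucosinolate genes (-0.40 and -0.39), GGH2, a gamma-glutamyl hydrolase (-0.38 and -0.55), the auxin repressor gene IAA5 (-0.38 and -0.60), and AAE12, an acyl-activating enzyme (-0.37 and -0.37). AAE12 is the neighbour of AT1G65900. The limit therefore separated genes with near-equal values. When 1 library was left out, 27 to 47 genes met the rule, the highest number without mock replicate 1 of 24 h. With fewer libraries the condition of no overlap is easier to meet, so these numbers do not measure the weight of a single library alone.

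Whether the genes were already lower at 6 h was tested over 19227 genes with edgeR's quasi-likelihood test and Benjamini-Hochberg adjustment. None of the 29 passed an adjusted p of 0.05 in either direction, and the lowest adjusted p was 0.516 (edgeR). Of all tested genes 0.0104% were lower and 0.026% higher at 6 h. DESeq2 and limma-voom also called 0 of the 29, and 3 had an unadjusted edgeR p under 0.05, which is 10.3% of them against 7.57% of all tested genes. Of these, MYB48 was lower with estradiol, whereas RD20 and AT1G26208 were higher. The 6 h values do not show that the genes were unaffected, since only 7 genes in all (0.0364%) passed at that time.

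The log2 fold changes at 6 h from edgeR ran from -0.52 to 0.68. The median size was 0.08, as over all tested genes (0.08). Estradiol and mock libraries overlapped in 24 genes, estradiol lay wholly below mock in 3 (10.3%, against 6.85% of tested genes) and wholly above in 2 (against 6.79%). MYB48 was at 4.39, 3.92 and 4.63 CPM in mock and 3.19, 2.27 and 3.60 CPM in estradiol leaves at 6 h. It was the lowest of the 29 at 6 h, without overlap, with a log2 fold change of -0.52 ± 0.16 (SE) and an adjusted p of 0.516 by edgeR. OFP16 and AT3G54830 also did not overlap, with log2 fold changes of -0.10 ± 0.08 and -0.18 ± 0.10 (SE) and adjusted p of 0.812 and 0.702 by edgeR.

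AT1G26208 and ELP had every estradiol library above every mock library at 6 h. AT1G26208 was at 1.38, 0.854 and 1.41 CPM in mock and 2.125, 1.831 and 2.02 CPM in estradiol leaves, and ELP at 1036, 1067 and 1076 against 1159, 1114 and 1215 CPM. By edgeR their log2 fold changes were 0.68 ± 0.22 (adjusted p 0.547) and 0.14 ± 0.11 (adjusted p 0.812). RD20 and TBL26 also had means above mock, but 1 library made the difference. In estradiol replicate 3 RD20 stood at 105 CPM, against 41.2 to 58.4 CPM in the other 5 libraries, and TBL26 at 281 CPM, against 94.0 to 112 CPM. Without that library the edgeR log2 fold change of RD20 was 0.11 in place of 0.55, and that of TBL26 -0.12 in place of 0.57. In the same library 22 of the 29 genes lay below the mock mean, with a median of -0.17, against 11 and 18 genes in the other estradiol libraries.

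The 29 genes also changed with time in mock leaves, which received no inducer. The mock libraries of 12 h and 24 h entered the choice of the genes, and the comparisons of 12 h with 6 h and of 24 h with 12 h share the 12 h libraries. The rule favours genes whose mock libraries ran high at 12 h and 24 h. The mock counts and p-values given here and below are therefore a description only. Values between times are on the scale of TMM-scaled CPM, a library scaling by the bulk of genes, because scaling by gene sums moved the median of all tested genes by 0.41 (12 h against 6 h) and -0.55 (24 h against 12 h) on the log2 scale, whereas TMM moved it by 0.02 and -0.03. By edgeR 16 of the 29 were lower and 6 higher in mock at 12 h than at 6 h, against 30.6% and 33.7% of all tested genes. From 12 h to 24 h 3 were lower and 23 higher, against 39.1% and 35.9%. From 6 h to 24 h 7 were lower and 18 higher, against 31.9% and 34.3%. The medians of the 29 log2 fold changes were -0.86, 1.44 and 1.11, against 0.03, -0.03 and 0.03 over all tested genes. The mean TMM-scaled CPM was lowest at 12 h in 20 of the 29 and highest at 24 h in 19.

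**Figure D3:**
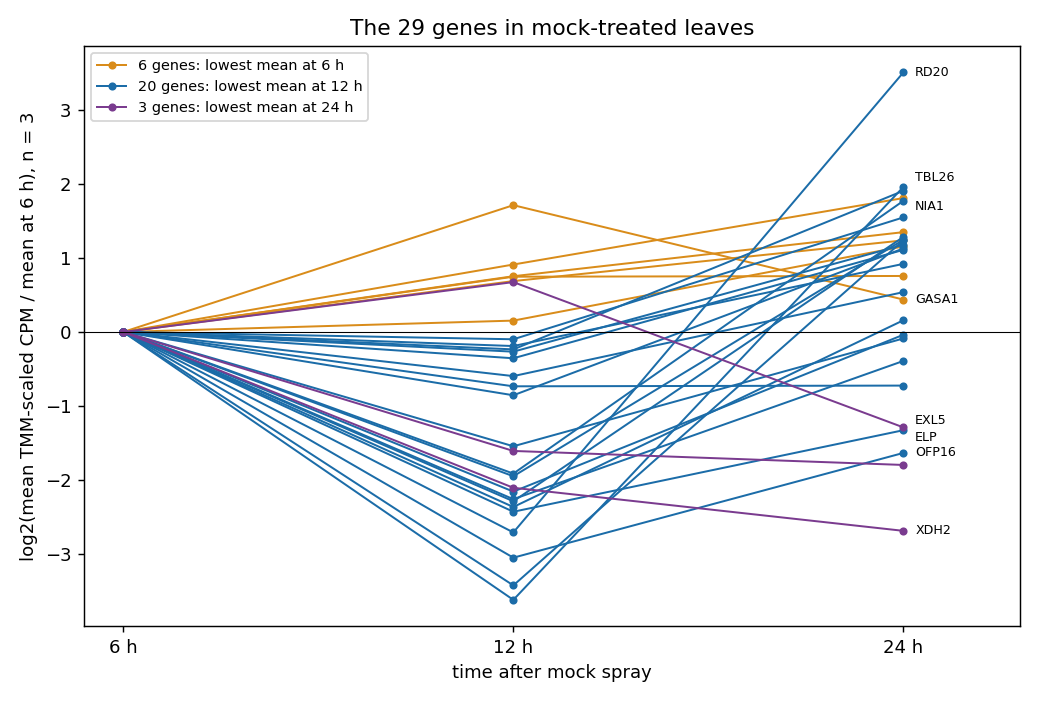
Course of the 29 genes in mock leaves, as log2 of the mean TMM-scaled CPM (n = 3 libraries) over the mean at 6 h, coloured by the time of the lowest mean. Of the lines 20 have their lowest point at 12 h, most of them climbing to 24 h with RD20 highest, while GASA1 peaks at 12 h and XDH2 descends throughout.

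RD20 had the largest log2 fold change of the 29 between 12 h and 24 h. Its mock libraries held 48.3, 44.5 and 62.1 TMM-scaled CPM at 6 h, 8.73, 7.61 and 7.42 at 12 h and 476, 784 and 495 at 24 h. The log2 fold changes were -2.71 ± 0.27 and then 6.21 ± 0.30 (SE), with adjusted p of 6.69e-08 and 9.44e-13 by edgeR. TBL26 followed a like path, from a mean of 119 TMM-scaled CPM at 6 h to 9.71 at 12 h and 462 at 24 h. Its log2 fold changes were -3.62 ± 0.34 and 5.58 ± 0.36 (SE), with adjusted p of 2.65e-08 and 7.55e-11 by edgeR. Both genes were thus at their lowest mock level at 12 h, where the estradiol leaves were lower still.

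OFP16 fell by 3.04 on the log2 scale from 6 h to 12 h, and it regained part of this by 24 h (1.42 ± 0.10; adjusted p of 1.86e-10 by edgeR). FRO2 was at 2.36 TMM-scaled CPM at 6 h, 0.628 at 12 h and 8.05 at 24 h, and its rise between 12 h and 24 h was 3.68 ± 0.27 (SE; adjusted p of 5.63e-10 by edgeR). ELP was highest at 6 h, with a mean of 1141 TMM-scaled CPM, and stood at 212 at 12 h and 455 at 24 h.

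Other genes took other courses. GASA1 rose from 30.6 TMM-scaled CPM at 6 h to 100.1 at 12 h and was at 41.4 at 24 h, and EXL5 went from 15.6 to 24.9 and then 6.39. NIA1 rose at both steps, from 33.3 to 62.5 and 116 TMM-scaled CPM, with log2 fold changes of 0.91 ± 0.22 and 0.90 ± 0.21 (SE; adjusted p of 0.00119 and 0.000735 by edgeR). XDH2 fell at both steps, from 48.5 to 11.3 and 7.56 TMM-scaled CPM. The 29 genes therefore did not share 1 course in mock leaves.

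The 29 genes include members of 5 of 16 pathway lists: NIA1 (nitrate and ammonium), AGP17 and EXL5 (growth-linked cell wall proteins), FMO GS-OX2 (aliphatic glucosinolates), GASA1 (brassinosteroid and gibberellin) and FRO2 (copper, iron, zinc and sulfate). The other genes of the lists were read in the edgeR test at 12 h and 24 h, where 5.07% of all tested genes were lower and 4.64% higher at 12 h, and 6.54% lower and 8.43% higher at 24 h. No list gene passed at 6 h. Over the 16 lists, with the genes of the rule left out, 74 genes were lower at 12 h and 104 at 24 h. At 12 h there were 30 without estradiol replicate 1 and 45 without mock replicate 2, and at 24 h 49 without mock replicate 2 and 61 without estradiol replicate 3. The median log2 fold change over all tested genes was -0.01 at 12 h and -0.03 at 24 h.

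Of the 72 other tested genes for growth-linked cell wall proteins, 23 were lower and 1 higher at 12 h, and 13 lower and 1 higher at 24 h. At 12 h EXO, the founding EXORDIUM gene and a relative of EXL5, had a log2 fold change of -1.43 ± 0.33 (SE; adjusted p of 0.01 by edgeR). Lower at both times were 8 of them, FLA18, FLA13, GAE1, GAE6, GAUT1 and the cellulose synthase genes CESA2, CESA5 and CESA6. CESA6 was at 324 CPM in mock and 261 CPM in estradiol leaves at 12 h, a log2 fold change of -0.33 ± 0.07 (SE; adjusted p of 0.00438 by edgeR). GAE1, which makes the pectin precursor UDP-galacturonic acid, had log2 fold changes of -0.34 ± 0.05 and -0.38 ± 0.06 (SE; adjusted p of 0.000914 and 9.1e-05 by edgeR). Without mock replicate 2 of 12 h EXO did not pass (-1.01; adjusted p of 0.0738 by edgeR), while CESA6 and GAE1 passed under every alternative tried.

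Of the 29 other nitrate and ammonium genes, 8 were lower and 3 higher at 12 h, and 3 lower and 5 higher at 24 h. The 3 lower at both times were NIR1, the nitrite reductase that takes the product of NIA1 further, UPM1, which makes the sirohaem precursor for that enzyme, and the asparagine synthetase gene ASN2. NIR1 was at 521 CPM in mock and 393 CPM in estradiol leaves at 12 h and at 586 against 459 CPM at 24 h, with log2 fold changes of -0.43 ± 0.10 and -0.43 ± 0.10 (SE; adjusted p of 0.0141 and 0.00808 by edgeR). NIA2, the second nitrate reductase gene, was lower at 12 h (-0.60 ± 0.14 SE; adjusted p of 0.0106 by edgeR) and did not pass at 24 h (-0.24 ± 0.14 SE; adjusted p of 0.26 by edgeR). At 12 h the calls of both genes rest on single libraries. By edgeR NIR1 had an adjusted p of 0.072 without mock replicate 2, 0.0838 without estradiol replicate 1 and 0.0548 without estradiol replicate 2, and NIA2 one of 0.0625 without mock replicate 2 and 0.0838 without estradiol replicate 1. At 24 h NIR1 had an adjusted p of 0.0547 by edgeR without mock replicate 2.

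Of the 26 other aliphatic glucosinolate genes, 4 were lower at 12 h and 13 at 24 h, and none was higher at either time. Lower at both were SOT18, a sulfotransferase of the last core step, and the regulators MYB28 and MYB29. MYB28 had log2 fold changes of -0.40 ± 0.08 and -0.55 ± 0.08 (SE; adjusted p of 0.0056 and 0.000145 by edgeR; at 12 h 0.0513 without estradiol replicate 1). Of the 43 other brassinosteroid and gibberellin genes, 6 were lower and 2 higher at 12 h, and 9 lower and 1 higher at 24 h. BES1, a factor of brassinosteroid response, was lower at both, by -0.33 ± 0.06 and -0.39 ± 0.06 (SE; adjusted p of 0.00123 and 6.51e-05 by edgeR), as were HBI1, BEE2 and CPD. Of the 45 other copper, iron, zinc and sulfate genes, 3 were lower and 1 higher at 12 h, and 7 lower and 4 higher at 24 h, with none lower at both.

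In most of the lists that hold none of the 29, more genes were lower than higher at 24 h. All 14 aquaporin genes that passed at 24 h, of 21 tested, were lower, as were the 5 that passed at 12 h. Of 33 cuticle genes 1 was lower and 1 higher at 12 h, and 13 were lower at 24 h, with the alkane-forming CER1 at -0.97 ± 0.14 (SE; adjusted p of 9.8e-05 by edgeR). Of 47 auxin genes 10 were lower at 12 h and 5 at 24 h, with none higher. Of 56 chlorophyll and photosynthesis genes 5 were lower and 1 higher at 12 h and 9 lower at 24 h, among them GLK2, a regulator of chloroplast development, at both times (-0.54 ± 0.05 and -0.44 ± 0.05 SE; adjusted p of 2.8e-05 and 5.93e-06 by edgeR). Sugar transport genes were lower in 3 and higher in 3 of 39 at 12 h, and lower in 7 and higher in 2 at 24 h. Of 32 clock and photoperiod genes 3 were lower and 1 higher at 12 h and 4 lower and 1 higher at 24 h. Of 26 flavonoid genes 2 were lower at 12 h, and 3 lower and 1 higher at 24 h. Through shared symbols the sugar list holds AT4G20270 in place of the beta-amylase gene CT-BMY, and the flavonoid list AT1G13900 in place of MYB90. Of 31 jasmonate genes 1 was lower at 12 h, and 1 lower and 3 higher at 24 h. Of 27 tubulin and actin genes 0 passed at 12 h and 1 was lower at 24 h. Higher genes prevailed among DNA replication and cell division genes, of which 0 of 42 passed at 12 h and 11 were higher and 1 lower at 24 h, and among salicylic acid and N-hydroxypipecolic acid (NHP) genes, of which 17 of 21 were higher at 12 h, and 19 higher and 1 lower at 24 h.

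**Figure D4:**
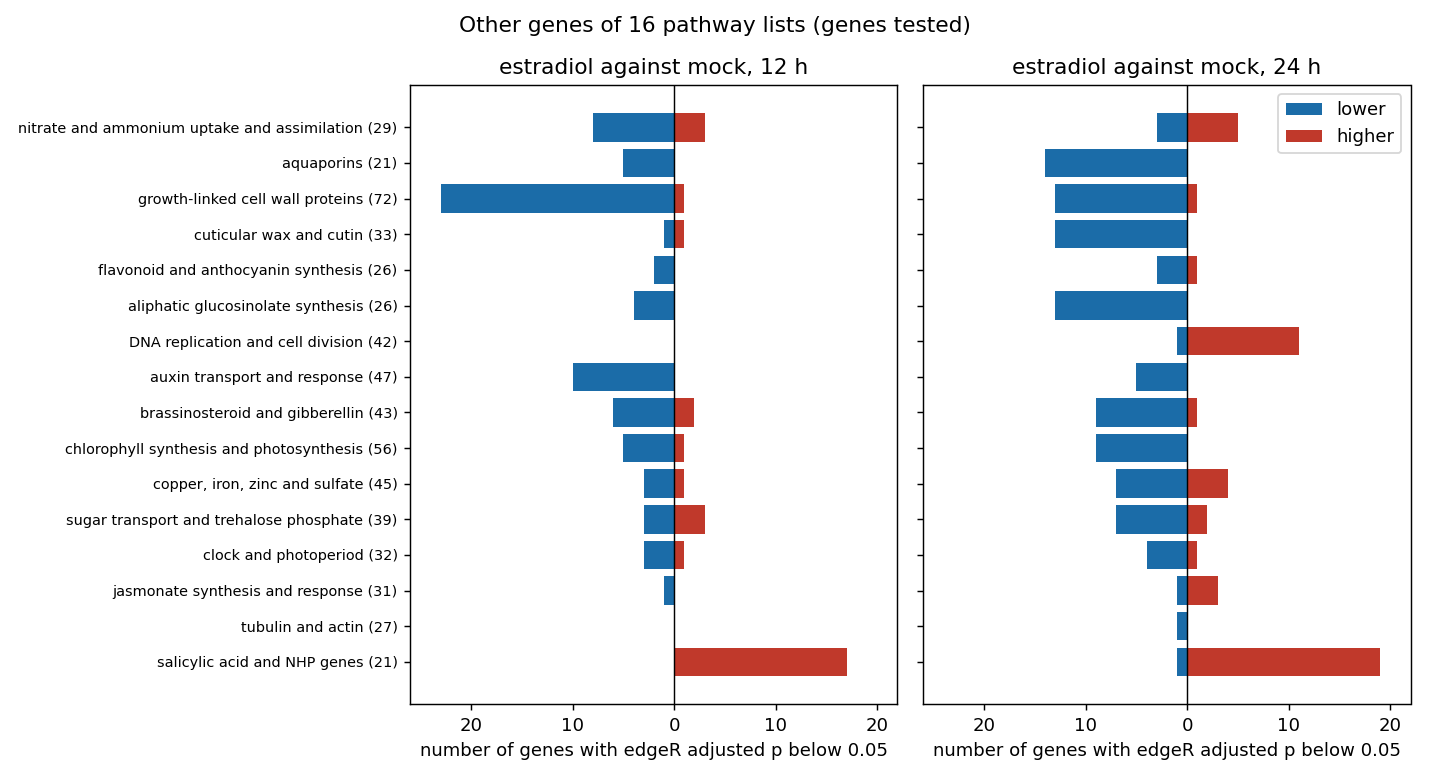
Number of genes of 16 pathway lists, the 29 genes left out, with an edgeR adjusted p below 0.05 for estradiol against mock at 12 h (left) and 24 h (right), blue to the left for lower and red to the right for higher; genes tested are in brackets. Growth-linked cell wall proteins have the longest blue bar at 12 h (23 of 72), and the salicylic acid and NHP genes have the longest red bars (17 and 19 of 21).

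Marker sums of cell types and organs moved with the treatment at some times. The summed CPM of 6 mesophyll markers was 25690 to 26890 in mock and 23210 to 24560 in estradiol libraries at 12 h, without overlap, and 39790 to 45300 against 37820 to 43520 at 24 h, with overlap. The largest part of the sum was RBCS1A, with means of 16770 CPM in mock and 15700 CPM in estradiol leaves at 12 h. Not all of these markers moved alike. At 12 h CAB2 was higher with estradiol, at 67.5 CPM in mock against 139 CPM (adjusted p of 0.00631 by edgeR). LHCB2.1 had means of 6.69 against 8.39 CPM and did not pass (adjusted p of 0.181 by edgeR). At 12 h the 6 phloem markers summed to 716 to 751 against 695 to 724 CPM and the 6 xylem markers to 45.9 to 51.4 against 44.1 to 58.5 CPM. The 6 guard cell markers summed to 2591 to 3145 against 2455 to 3002 CPM and the 7 epidermis and trichome markers, of which MYB0 was at 0, to 440 to 476 against 431 to 460 CPM, all overlapping. The 8 root markers, of which 2 were at 0, summed to 72.7 to 74.2 CPM in mock and 79.5 to 83.3 CPM in estradiol leaves at 24 h, without overlap. Nearly all of this came from SCR and SHR, at 18.2 to 75.5 and 4.66 to 12.1 CPM over all libraries. No other root marker exceeded 0.7525 CPM in any library. The 8 flower markers summed to 505 to 530 against 443 to 497 CPM at 12 h. Most of this came from the entries matched by symbol as SEP1 and SEP2, which may not be the flower genes meant. At 6 h the epidermis and trichome markers summed to 282 to 288 CPM in mock and 253 to 273 CPM in estradiol libraries. Neither these differences nor their part in the values of the 29 genes was tested.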

How the data were processed

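The 18 libraries were grouped by sample title. The authors deposited unnormalized counts of reads per gene. Per the submitters' processing notes FastQC 0.11.2, TopHat2 2.0.10 and HTSeq, its version not given, were used with TAIR10. Annotation release and strand setting are not stated in the sources used here, so antisense and other overlapping genes share uncertainty. Reads assigned to no gene (5.76 to 6.71%) were left out. Of 32678 genes 8174 were at 0 in all libraries.

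CPM for the choice of genes used each library's gene sum. Tests used edgeR 4.0.16 in R 4.3.3 (quasi-likelihood, a coefficient for each of 6 groups, TMM, filterByExpr with minimum count 10 and minimum total 15), which kept 19227 genes, with all 29 among them. P-values were adjusted by Benjamini-Hochberg over these genes and called below 0.05. The code was tested on simulated counts. Names, promoters (250 bases) and positions came from RefSeq TAIR10.1, which held 31912 of the loci. Replicate libraries all differed beyond sampling noise (reduced chi-square at least 2.96).

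The 29 genes, the 16 pathway lists and the 8 marker lists were chosen with earlier results of these data known, and the roles after the genes were seen. Named genes followed a rule: the 12 largest mean falls among genes with a symbol, up to 4 genes of each list, the 4 with most reads, those beside the limit, and the 3 largest rises and falls of each mock comparison. As each of the 29 is given, those outside the rule, and list genes not among the 29, were chosen after their values were seen. Of all list entries 14 matched no gene. Entries were matched by symbol, which put BAM3 (sugar list) and PAP2 (flavonoid list) on genes other than those meant. SEP1 and SEP2 of the flower list may be further cases, and such cases were not searched for. Alternatives were DESeq2 1.42.0 and its size factors, limma-voom (limma 3.58.1), upper-quartile scaling, other filters, pseudocounts and limits, a replicate block, fits to the libraries of 1 contrast alone, and each library left out.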

Additional observations from a re-analysis of the deposited data

Results flagged for a closer look

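ELP and AT1G26208 had every estradiol library above every mock library at 6 h and every one below at 12 h and 24 h. The log2 difference at 6 h on the gene-sum scale was 0.13 for ELP and 0.54 for AT1G26208. The direction at 12 h and 24 h was fixed by the choice of the genes, neither gene passed edgeR at 6 h, and the difference between the times was not tested.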

How the results depend on the processing

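The rule gave 29 genes. It gave 57 with TMM-scaled CPM, 52 with DESeq2 size factors and 51 with a pseudocount of 0.1, each including all 29, 20 of the 29 with a pseudocount of 1 and 12 of them with a limit of -0.5. With 1 library left out, which makes the condition of no overlap easier to meet, it gave 27 to 47 genes, of which 22 to 28 were among the 29. At 6 h 0 of the 29 passed under every alternative tried. There 32 of 406 values of the 29 genes under alternatives changed sign against the edgeR value, in 16 genes, none passing the test; for TBL26 the value was -0.1215 without estradiol replicate 3 and at most 0.8471 with another library left out. In mock 6 of 406 values changed sign for 24 h against 12 h and 5 of 406 for 24 h against 6 h, and in those of 12 h against 6 h none did. The number of the 29 that changed in mock was 22, 26 and 25 in the 3 comparisons and stayed within 21 to 26 under every alternative. Of list genes outside the rule, a count added after seeing the data, 74 were lower at 12 h (30 to 74 with 1 library left out) and 104 at 24 h (58 with only the libraries of the contrast, 49 to 128 with 1 left out). With the list genes that the rule chose, whose direction it fixed, the counts were 78 (33 to 78) and 108 (63, and 52 to 132). Libraries with the same number did not pair (correlations of deviations from -0.16 to 0.198). With the replicate block 0 of the 29 passed at 6 h, 22, 26 and 25 changed in mock, and 69 and 92 list genes outside the rule were lower at 12 h and 24 h (73 and 96 with those it chose). The cause of these differences was not tested. Depth limits FRO2, DTA2 and AT1G62510 at 12 h, where libraries held 9 to 38 reads.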
